A study of Homo sapiens with 12 samples.

Results

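The response of the human glioblastoma cell line U87 to BCT-100 was described over every gene with a deposited value of 10 or more in at least 3 of its 6 libraries. These members were chosen by level alone, and they numbered 12673 of the 19824 entries kept from the table. BCT-100 is a pegylated arginase I, the liver enzyme that breaks arginine down, so that it is lost from the medium. There were 3 libraries of cells given 1 U/ml BCT-100 and 3 of cells given phosphate-buffered saline (PBS), all at 72 h, from wild-type cells kept in high-glucose DMEM with serum. The same treatments of a second glioblastoma line, U373, entered the fit with 6 further libraries and serve below for comparison only. Each line stands for 1 established tumour line, at 1 dose and 1 time. Of the members, 11975 were at 10 or more in all 6 libraries, 133 passed only through the BCT-100 libraries and 82 only through the PBS libraries. Such members had to differ, and they stood in 22 of the 54 gene lists described here, at most 4 in a list. PRPH, with a third-highest value of 10.0, lay just inside the limit, and RP11-231C18.3, with 9.99, just outside.

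Arginine is needed for protein, polyamine, creatine and nitric oxide synthesis, and a cell that cannot make enough of it depends on uptake. Shortage of an amino acid leaves tRNAs uncharged, which activates the kinase GCN2 and raises the transcription factor ATF4, while the growth-promoting complex mTORC1 loses its arginine signal. U87 is known as an adherent line that makes its own growth factors, cytokines and matrix. Genes of the amino acid stress response, of mitosis and replication, and of NF-kB with its main cytokines are set aside below, and the account covers the other genes. Of these 3 groups, 46 of 47 stress genes rose, all 97 mitosis and replication genes fell and all 30 NF-kB members rose, but these groups were drawn up with their direction known, so the counts are no independent evidence of it.

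Values are the deposited ones, that is expected read counts divided by 1 factor per library, and are comparable between libraries but not, without transcript length, between genes. Values after ± are SDs of 3 libraries. Changes are log2 of BCT-100 over PBS on the scale of log2(value + 1), and SE is their standard error in the fit. Genes are said to have risen or fallen when limma's two-sided test across all genes gave a Benjamini-Hochberg adjusted p under 0.05, and are otherwise not called. The labels do not say whether replicates were separate cultures, so these p-values measure the spread between libraries, which may be technical. The U87 libraries held between 21.30 and 25.92 M reads. Mitochondrially encoded mRNA, which also moves with RNA quality, made up 5.92% ± 0.124 of the PBS libraries and 3.66% ± 0.0560 of the BCT-100 libraries (SD, n = 3 each). These shares gave p = 0.1 in a two-sided exact permutation test, the smallest that 3 against 3 libraries allow, and the part of RNA quality in the results was not tested.

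The label of a glioblastoma line was checked against marker genes. All 13 markers of mesenchymal glioblastoma were members, among them CD44, MET and CHI3L1, and 4 rose, 7 fell and 2 were not called (median -0.26). Of the glial and neural stem markers 8 were members, of which 2 rose, 5 fell and 1 was not called. The rises were those of OLIG2, at a mean of 20.6 with PBS and 108 with BCT-100, and of SLC1A2, at 37.3 and 98.4. NES, SLC1A3 and SOX9 stood at means of 1445, 819 and 566 with PBS and 666, 593 and 466 with BCT-100. Several defining glial genes were not members: AQP4, OLIG1, SOX10, MSI1 and NKX2-2 were at 0 in all 6 libraries, and GFAP and SOX2 did not exceed 3.91 and 1.96. The glial and neural stem markers summed to between 179336 and 183164 with PBS and between 71563 and 73490.3 with BCT-100, sums that rest almost wholly on VIM. PTPRC, CD3E and AIF1 of leukocytes and HBB of erythroid cells were at or near 0, whereas CD68, a lysosomal protein used as a macrophage marker, was at 6032 with PBS and 2453 with BCT-100. Of the 3 leukocyte and microglial markers that were members, 0 rose, 2 fell and 1 was not called. Neuronal marker genes were mixed, since 2 of 9 members rose and 4 fell. NEFM passed the filter only through the PBS libraries and so had to differ, and without it 2 of 8 rose and 3 fell. Of 4 endothelial and erythroid markers that were members, 2 fell, and of 9 fibroblast and smooth muscle markers 5 fell and 1 rose. Epithelial and keratinocyte markers are described with the junction genes. In bulk RNA, fewer cells of a kind and less RNA per cell cannot be told apart.

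BCT-100 changed most of the measured transcriptome of U87, mostly by small amounts. Of the 12673 members, 4466 rose (35.2%) and 4744 fell (37.4%), 72.7% in all, so a call by itself says little, and every list below is read against these shares. The median change over all members was -0.019. Of the rises 55.8% and of the falls 51.7% were below 1.5-fold. A change of 2-fold or more was called upward in 1002 members (7.91%) and downward in 1123 (8.86%), and 2671 (21.1%) exceeded 1.5-fold by limma's treat test. The upward tail was longer: 55 members rose and 10 fell by 16-fold or more. These counts include genes of the groups set aside, and members such as RGS16 that passed the filter only through the BCT-100 libraries and so had to differ. Where the PBS values are at or near 0, the size of the fold depends on the pseudocount. Outside the 3 groups set aside, 934 members rose and 1045 fell by 2-fold or more. As a description of the size of the change, the 1002 strongly raised genes took 4.73% of the reads with PBS and 14.3% with BCT-100, and the 1123 strongly lowered ones 6.51% and 2.28%. The groups did not overlap in 9763 members (77.0%). Over all 13628 genes in the fit the shares were 69.3% called in either direction, 33.6% higher and 35.7% lower, 8.17% at 2-fold or more higher, 20.3% by treat and 73.0% without overlap.

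**Figure D1:**
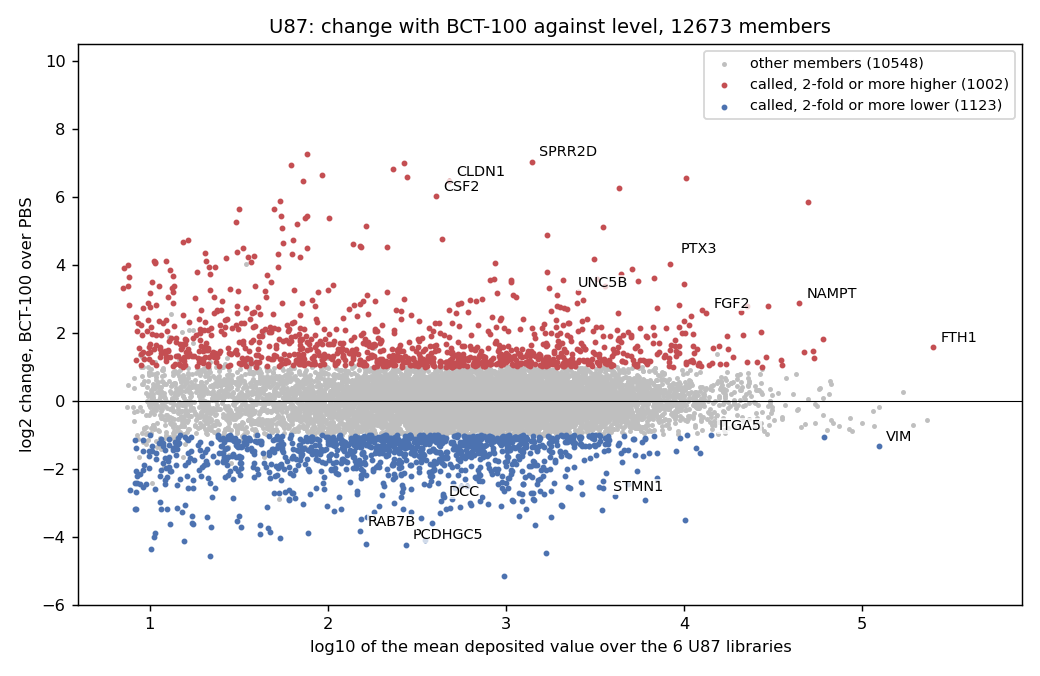
Each point is 1 of the 12673 members, with the log10 of its mean value over the 6 U87 libraries on the x axis and its log2 change with BCT-100 on the y axis. Red points were called at 2-fold or more higher (1002) and blue points at 2-fold or more lower (1123), and the red points reach farther from 0 than the blue ones.

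The genes that gained most reads outside the groups set aside were those of iron storage and of NAD synthesis. NAMPT, the rate-limiting enzyme of NAD salvage (chromosome 7, 106248285 to 106286326 on GRCh38), stood at 10452, 10792 and 10559 in the PBS libraries and 78144, 74785 and 81103 in the BCT-100 libraries. All 3 treated libraries lay far above the PBS libraries, and the rise was 2.88 (SE 0.032, limma adjusted p = 2.97e-23). FTH1, the heavy chain of the iron store ferritin, stood at 125402, 123256 and 129243 in the PBS libraries and 372038, 382937 and 370263 in the BCT-100 libraries. It rose by 1.57 (SE 0.029), and the light chain gene FTL rose by 1.25 (SE 0.028), from 31681 ± 242 to 75292 ± 2284. TXNRD1, thioredoxin reductase, and PSAP, the precursor of the lysosomal saposins, rose by 1.28 and 1.06. HSPA8, a constitutive chaperone, and EEF1A1, an elongation factor, gained many reads with small rises of 0.50 and 0.26. FLNC, NRP1, MAP1B and NFE2L1 were also among the 12 largest gains and are described with their groups.

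The largest losses fell on structural genes and on the mitochondrial genome. VIM, the intermediate filament vimentin, stood at 175813, 179392 and 176147 in the PBS libraries and 69030.0, 70811 and 70337 in the BCT-100 libraries. Its loss was the largest outside the groups set aside, with a change of -1.34 (SE 0.021, limma adjusted p = 4.15e-21). ACTB and ACTG1, the cytoplasmic actins, had changes of -1.06 and -0.64, and FN1, fibronectin, fell by 0.85, from 81276 ± 1768 to 45171 ± 1116. PKM, pyruvate kinase, and AHNAK, a giant scaffold protein, had changes of -0.75 and -0.50. Of the 12 largest losses 6 were mitochondrially encoded, MT-ND4, MT-ND2, MT-CO1, MT-CO2, MT-CO3 and MT-ATP6, with changes between -0.89 and -0.55. These 6 are part of the mitochondrial share given above.

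**Figure D2:**
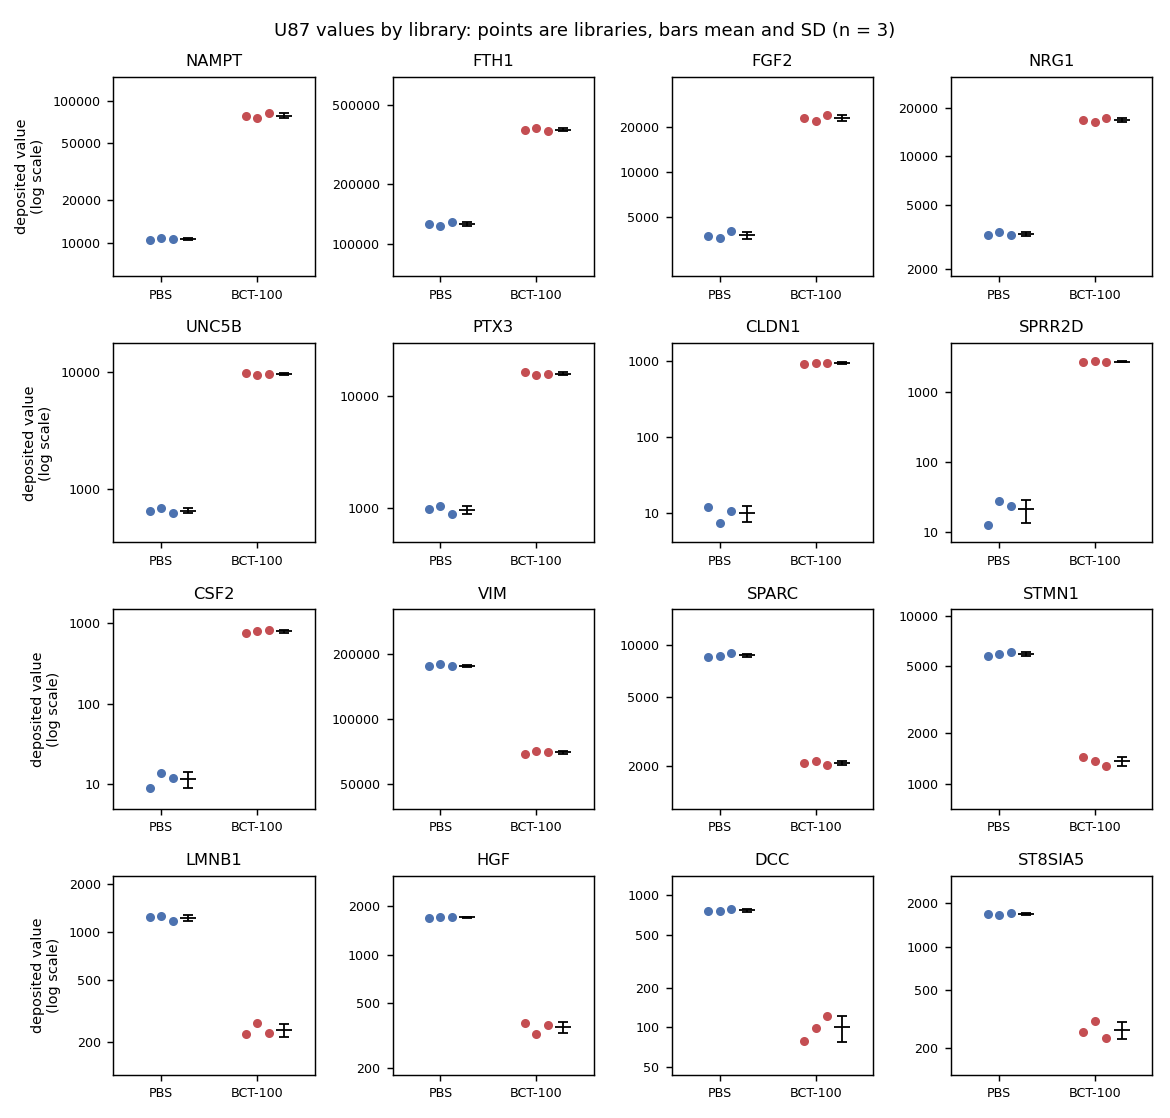
Deposited values of 16 genes in the 6 U87 libraries on a log y axis, with points for libraries and bars for mean and SD (n = 3). In each of the 16 panels the 3 PBS and the 3 BCT-100 libraries do not overlap, and NAMPT, CLDN1, SPRR2D and CSF2 are among the 9 that are higher with BCT-100.

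Growth factor ligands were among the strong rises. NRG1, neuregulin 1, a ligand of the ERBB receptors, stood at 3258, 3394 and 3235 in the PBS libraries and 16699.7, 16276 and 17208 in the BCT-100 libraries. It rose by 2.34 (SE 0.035), and the EGF family ligands BTC, HBEGF and TGFA rose by 1.79, 1.3 and 1.21, whereas EGF and NRG2 had changes of -0.66 and -1.14. The receptors EGFR and ERBB2 rose by only 0.21 and 0.57. EREG, epiregulin, stood at 8125, 8653 and 8662 with PBS and 22119, 21711 and 22876 with BCT-100. Its groups lay far apart, with a change of 1.39 (SE 0.66), but it was not called, with a limma adjusted p of 0.0908. It is near 0 in U373, from 1.17 ± 2.03 to 3.74 ± 3.31, and those libraries enter the shared spread. In the limma fit of the 6 U87 libraries alone it was called, with the same change and an adjusted p of 2.95e-24. Of 9 members of this list, 6 rose, 2 fell and 1 was not called, with a median of 1.21.

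FGF2, basic fibroblast growth factor, stood at 3762, 3648 and 4035 in the PBS libraries and 23088, 21767 and 23852 in the BCT-100 libraries, a rise of 2.59 (SE 0.039). FGF18 rose by 2.8 from a low level, 20.6 ± 1.49 to 149.9 ± 20.9, while FGF1 fell by 1.59 and FGF5 fell by 1.15. The neuropilins NRP1 and NRP2, co-receptors of VEGF and semaphorins, rose by 1.21 and 2.18, NRP1 from 21101 ± 529.8 to 48751 ± 553. PDGFRA and PDGFRB, the PDGF receptors, had changes of -1.11 and -0.55. Over the FGF, PDGF and VEGF genes 9 rose, 7 fell and 4 were not called (median 0.14). In the IGF axis, IGFBP3, a binding protein that holds IGF in the extracellular space, rose by 2.97 (SE 0.053), from 613 ± 31.5 to 4794 ± 86.7, and the insulin receptor INSR rose by 1.57. IGF2BP3, an RNA-binding protein of fetal and tumour cells, and IGFBP2 had changes of -1.59 and -1.31, and 7 of the 13 IGF members rose while 6 fell (median 0.21).

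BDNF, brain-derived neurotrophic factor, rose by 1.12. HGF, the ligand of the receptor MET, moved the other way and stood at 1705, 1724 and 1714 in the PBS libraries and 377, 325 and 365 in the BCT-100 libraries. Its change was -2.27 (SE 0.28), and SORT1, a sorting receptor for neurotrophins, fell by 1.01. The list of neurotrophin, HGF and TAM receptor genes had 14 members, of which 7 rose, 5 fell and 2 were not called (median 0.17).

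The feedback genes of growth factor signalling rose in part. Among 33 ERK feedback and RGS genes 18 rose, 11 fell and 4 were not called, with a median of 0.41. RGS16 and RGS7 passed the filter only through the BCT-100 libraries and so had to differ. The other 31 gave 16 rises and 11 falls (median 0.33). RGS16, which ends signalling through G proteins, was at 0 in every PBS library and at 178, 141 and 139 in the BCT-100 libraries. Against a floor of 3 reads over the PBS group it was at least 155-fold higher. RGS4 of the same family stood at 332, 357 and 366 in the PBS libraries and 62.2, 44.2 and 47.8 in the BCT-100 libraries and fell by 2.76 (SE 0.11). Of the ETS factors that ERK induces, ETV4 rose by 1.25, while ETV1 fell by 1.32.

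Transcription factors of the immediate early and AP-1 class were higher on balance. Of 29 members 15 rose, 5 fell and 9 were not called (median 0.31). MAFF, a small MAF protein, rose by 2.87 (SE 0.085), from 601 ± 46.1 to 4406 ± 227, and KLF4, a Krüppel-like factor, by 2.66. JUNB and KLF10 rose by 1.84 and 1.79, but FOS was not called, with a change of -0.31. EGR1, the early growth response factor, fell by 0.99, and KLF6 fell by 0.53.

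Axon guidance genes held some of the largest changes in both directions. UNC5B, a receptor for netrin, stood at 643, 679.5 and 623 in the PBS libraries and 9693, 9395 and 9571 in the BCT-100 libraries. It rose by 3.88 (SE 0.059, limma adjusted p = 1.99e-21). DCC, the other main netrin receptor, stood at 765, 755 and 783 in the PBS libraries and 78.7, 98.3 and 123 in the BCT-100 libraries. The groups were separate and the change was -2.95 (SE 0.37), so that these receptors for the same ligand moved in opposite directions. EPHA5, an ephrin receptor, fell by 2.51, and ROBO3, a receptor of the Roundabout family, rose by 1.77. In all, 44 guidance genes were members, and 19 rose, 13 fell and 12 were not called (median 0.096).

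Developmental signalling pathways showed no common direction. In the TGF-beta, activin and BMP list 15 rose, 18 fell and 14 were not called of 47 (median 0.021, a sign that some settings turned). INHBE and INHBA, which encode activin subunits, rose by 3.2 and 1.82. TGFB3, a TGF-beta ligand, fell by 2.17, and CHRDL1, an extracellular antagonist of BMPs, fell by 2.56. NOTCH pathway genes had 13 rises and 7 falls among 24 (median 0.39). HES7 passed the filter only through the BCT-100 libraries, and without it 12 rose and 7 fell of 23 (median 0.38). The NOTCH target HEY1 rose by 2.08 and the co-activator MAML3 by 1.31, while the receptor NOTCH3 had a change of -1.06 and the processing protease ADAM10 -0.57.

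Genes of the WNT list fell more often than they rose, 14 against 8 of 33 (median -0.12). SFRP2 passed the filter only through the BCT-100 libraries, and without it the counts were 14 against 7 of 32 (median -0.12). LGR4, a receptor of R-spondins, fell by 1.94, from 796 ± 30.7 to 207 ± 9.23, and RNF43, a ubiquitin ligase that removes WNT receptors, fell by 2.04. The R-spondin RSPO3 and the receptor FZD7 rose by 1.97 and 1.24, RSPO3 from 43.3 ± 18.2 to 161 ± 11.2 and FZD7 from 42.6 ± 4.37 to 104 ± 28. Hippo pathway and YAP target genes were evenly spread, with 10 rises and 9 falls among 25 (median 0.053). CYR61, a matricellular YAP target, and AJUBA, a LIM protein, rose by 1.31 and 1.09. VGLL3, a TEAD co-factor, and NF2, the upstream tumour suppressor merlin, had changes of -1.28 and -1.17.

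**Figure D3:**
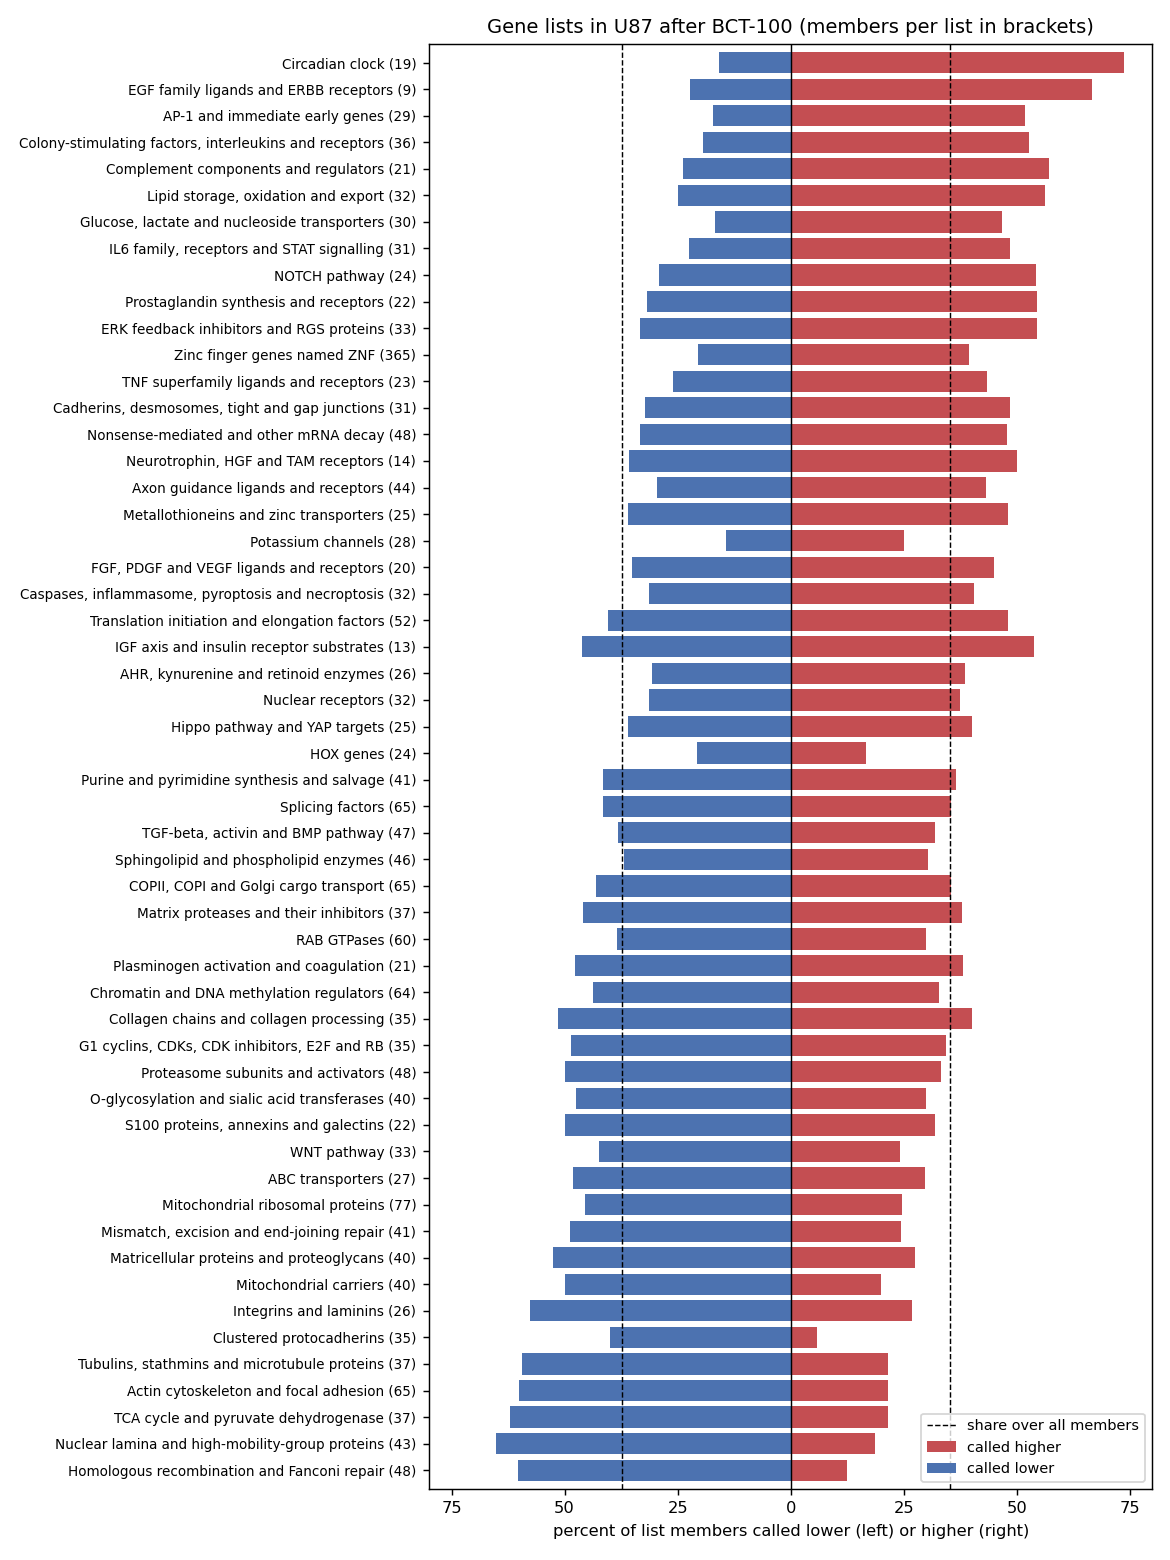
For each of 54 lists, the bar to the right gives the percent of its members called higher and the bar to the left the percent called lower, with the number of members in brackets. Dashed lines mark the shares over all members, 35.2% and 37.4%. The circadian clock and EGF family lists stand at the top and repair by homologous recombination and nuclear lamina genes at the bottom.

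The extracellular matrix and its receptors were lower on balance. Of 40 matricellular and proteoglycan members 11 rose, 21 fell and 8 were not called, with a median of -0.31. SPARC, a collagen-binding protein of remodelling matrix, stood at 8598, 8696 and 8978 in the PBS libraries and 2071, 2130.4 and 2023 in the BCT-100 libraries. The groups did not overlap, and the change was -2.08 (SE 0.035). ECM1 fell by 2.04 and VCAN, the large proteoglycan versican, fell by 1.53. Against this direction SDC3, a cell surface heparan sulfate proteoglycan, stood at 28.4, 31.8 and 41.5 with PBS and 282, 331 and 278 with BCT-100, a rise of 3.11 (SE 0.10), and TNXB, tenascin X, rose by 1.41.

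Collagen genes divided, with 14 rises and 18 falls among 35 (median -0.073). COL11A2 passed the filter only through the BCT-100 libraries and COL14A1 only through the PBS libraries. The remaining 33 gave 13 rises and 17 falls (median -0.073). COL1A2, a chain of fibrillar collagen I, fell by 1.52, from 10473 ± 383 to 3649 ± 62.3. COL8A1 and the processing enhancer PCOLCE had changes of -1.7 and -1.91, while COL15A1 and the prolyl hydroxylase subunit P4HA1 rose by 1.29 and 1.37. Integrins and laminins were lower in 15 and higher in 7 of 26 (median -0.23), and none of the rises reached 2-fold. ITGA5, the fibronectin receptor chain, stood at 18848, 18699.5 and 19358 in the PBS libraries and 9353, 9307 and 9456 in the BCT-100 libraries and fell by 1.02 (SE 0.042). ITGA10 and ITGA4 had changes of -1.98 and -1.48, and ITGAV and LAMB2 small rises of 0.68 and 0.40.

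Matrix proteases and their inhibitors gave 14 rises and 17 falls in 37 members (median -0.14). MMP8 and MMP10 passed the filter only through the BCT-100 libraries and so had to differ. The remaining 35 gave 12 rises and 17 falls (median -0.18). ADAMTS9, an aggrecan-cleaving protease, and MMP17, a membrane-type metalloprotease, rose by 2.33 and 1.36, and the inhibitor TIMP1 rose by 0.91, from 4663 ± 238 to 8746 ± 127. ADAM22 fell by 2.0. ADAM8 stood at 903, 902 and 885 with PBS and 305, 308 and 314 with BCT-100, a change of -1.54 with an SE of 0.60 and a limma adjusted p of 0.0445. Its U373 values, from 3.01 ± 2.8 to 10.4 ± 5.64, enter the same spread, and the call was lost when any U87 library was left out. In the plasminogen and coagulation list 8 rose, 10 fell and 3 were not called of 21 (median -0.30). THBD, thrombomodulin, and SERPINA1, alpha-1-antitrypsin, rose by 2.28 and 2.12, whereas the protease-activated receptors F2RL1 and F2RL2 had changes of -1.7 and -1.41, and the call of F2RL1 was lost with a pseudocount of 0.5.

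Several genes of barrier epithelia that U87 barely expresses with PBS were raised. CLDN1, a claudin of tight junctions, stood at 11.7, 7.28 and 10.6 in the PBS libraries and 927, 959.7 and 955 in the BCT-100 libraries. No treated library came near the PBS libraries, a rise of 6.47 (SE 0.17). CLDN7 rose by 2.96. Of the cadherins, CDH18 fell by 2.59 and CDH24 fell by 2.19. The junction list held 31 members, of which 15 rose, 10 fell and 6 were not called (median 0.085). PANX2 passed the filter only through the BCT-100 libraries, and without it 14 rose and 10 fell of 30 (median 0.084). Of the 11 epithelial and keratinocyte markers among the members, SPRR2A, SPRR2F and ESRP1 passed the filter only through the BCT-100 libraries and EPCAM only through the PBS libraries, so these 4 had to differ. Of the other 7, KRT7, KRT80, SPRR2D and CLDN7 rose, and KRT8, CLDN4 and PI3 were not called. The summed level of the markers ran from 599 to 687 with PBS and from 4901 to 5269 with BCT-100, and most of the gain was in SPRR2D, from 21.1 ± 7.58 to 2774 ± 36.9, and KRT80, from 361 ± 43.6 to 1594 ± 102. KRT80 and ESRP1, an epithelial splicing regulator, rose by 2.14 and 4.08. The defining epithelial genes KRT5, SPRR1A and SPRR1B stayed at 0 in all 6 libraries, CDH1, KRT14 and GRHL2 did not exceed 4.35, and EPCAM fell by 2.59.

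Clusters of neighbouring genes rose together at 5 places and fell together at 2. The run with the largest rise held the small proline-rich proteins, which build the cornified envelope of skin, at chromosome 1, 153039725 to 153219317 (GRCh38). SPRR2D stood at 12.6, 27.3 and 23.4 in the PBS libraries and 2754, 2816 and 2750.4 in the BCT-100 libraries, a rise of 7.04 (SE 0.40). SPRR2A stood at 1.05, 0 and 2.13 with PBS and 172, 165 and 216 with BCT-100, a ratio of 174 with a 95% counting interval of 60.7 to 868. SPRR2E had a ratio of 92.2 (95% counting interval 25.1 to 766), and SPRR2F was at 0 in all PBS libraries and at least 15.3-fold higher with BCT-100. SPRR2E had 2 reads with PBS, so like SPRR2A and SPRR2F it passed the filter only through the BCT-100 libraries and had to differ. PRR9 beside them rose by 1.82. The SPRR2 genes are close copies, so reads may be split between them. A further run lay on chromosome 11, 102396332 to 102780628, with the metalloprotease genes MMP7, MMP8 and MMP10 and TMEM123, and rises of 1.33, 3.39, 2.37 and 1.09. Of these, the metalloproteases stayed at low values, and MMP8 had 2 reads in all with PBS, against 43 (ratio 20.2, 95% counting interval 5.28 to 172). MMP8 and MMP10 passed the filter only through the BCT-100 libraries and so had to differ. Runs that rose on chromosomes 2 and 4 held interleukin 1 family and CXCL genes, of which IL36B and IL36RN lie outside the groups set aside and rose by 1.67 and 2.01. On chromosome 12, 57452323 to 57521737, INHBE, GLI1, ARHGAP9, MARS and DDIT3 rose, by between 1.18 and 3.20. GLI1 is the transcription factor of hedgehog signalling and MARS the methionyl-tRNA synthetase.

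The runs that fell held glutathione transferases and a mixed group. AMPD2, GSTM4, GSTM2 and GSTM1 on chromosome 1, 109616104 to 109709551, had changes of -1.2, -1.68, -1.48 and -1.08. The GSTM genes conjugate glutathione and are near-identical copies, so their counts are uncertain. GPR162, P3H3, GNB3, CDCA3 and USP5 on chromosome 12, 6821545 to 6866632, had changes between -3.30 and -1.0. CDCA3, a mitotic entry factor, fell most, whereas GNB3 stood at 16.6, 19.1 and 22.3 with PBS and 5.18, 15.3 and 7.61 with BCT-100 and lost its call when any of 3 libraries was left out.

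Promoters of 5 members are shown to place the motifs that are counted below, each 300 bases long from RefSeq (GRCh38.p14), from 250 before the start to 50 after it, 5′ to 3′ on the gene's strand. Capitals mark AP-1 motifs (TGANTCA) in SPRR2A and SPRR2F, an AP-1 and an NF-kB motif in TNFRSF9, the composite motif of ATF4 and C/EBP factors (TTGCATCA, here on the other strand) in IL20RB, and the cell cycle homology region (TTTGAA) and the CCAAT box (CCAAT) in UBE2T. The windows are chr1:153057463-153057762 (minus strand) for SPRR2A, chr1:153113467-153113766 (minus) for SPRR2F, chr1:7940790-7941089 (minus) for TNFRSF9, chr3:136957733-136958032 (plus) for IL20RB and chr1:202341887-202342186 (minus) for UBE2T.
SPRR2A: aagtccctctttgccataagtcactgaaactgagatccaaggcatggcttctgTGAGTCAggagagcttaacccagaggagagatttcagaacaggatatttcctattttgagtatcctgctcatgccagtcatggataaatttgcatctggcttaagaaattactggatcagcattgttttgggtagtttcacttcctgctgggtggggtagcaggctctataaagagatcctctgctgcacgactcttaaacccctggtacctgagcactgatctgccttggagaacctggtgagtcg
SPRR2F: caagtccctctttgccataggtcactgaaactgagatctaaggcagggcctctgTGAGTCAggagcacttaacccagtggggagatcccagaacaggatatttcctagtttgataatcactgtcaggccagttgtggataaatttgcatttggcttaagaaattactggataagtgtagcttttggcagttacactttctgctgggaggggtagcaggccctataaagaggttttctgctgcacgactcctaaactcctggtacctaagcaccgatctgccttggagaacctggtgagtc
TNFRSF9: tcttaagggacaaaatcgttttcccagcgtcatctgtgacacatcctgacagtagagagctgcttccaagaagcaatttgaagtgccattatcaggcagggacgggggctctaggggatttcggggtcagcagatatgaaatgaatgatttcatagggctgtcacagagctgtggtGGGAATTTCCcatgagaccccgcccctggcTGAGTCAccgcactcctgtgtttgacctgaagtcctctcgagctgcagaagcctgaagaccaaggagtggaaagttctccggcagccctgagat
IL20RB: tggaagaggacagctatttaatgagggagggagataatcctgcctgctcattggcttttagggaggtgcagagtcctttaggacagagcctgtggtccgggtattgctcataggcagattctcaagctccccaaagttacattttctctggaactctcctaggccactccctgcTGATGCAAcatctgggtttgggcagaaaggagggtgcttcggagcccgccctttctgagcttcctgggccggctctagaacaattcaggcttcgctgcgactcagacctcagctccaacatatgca
UBE2T: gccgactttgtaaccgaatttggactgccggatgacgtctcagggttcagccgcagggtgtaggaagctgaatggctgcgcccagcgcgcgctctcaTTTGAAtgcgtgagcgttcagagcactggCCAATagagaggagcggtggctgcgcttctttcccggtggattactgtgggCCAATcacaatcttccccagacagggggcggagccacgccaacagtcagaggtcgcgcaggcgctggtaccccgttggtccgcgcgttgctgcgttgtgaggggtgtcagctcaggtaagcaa

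In SPRR2A and SPRR2F the AP-1 match starts 197 and 196 bases before the start site, and the aligned windows were 87.1% identical. TNFRSF9, a TNF receptor family member of activated immune cells, stood at 178, 178 and 175 with PBS and 1605, 1615 and 1625 with BCT-100, a rise of 3.18. IL20RB, a chain of the IL20 and IL24 receptors, rose from 42.3 ± 4.64 to 327 ± 27.3, a change of 2.92. UBE2T, the ubiquitin-conjugating enzyme of the Fanconi pathway, fell by 1.29, from 955 ± 47.8 to 390.4 ± 21.1. All motifs were searched on both strands, and a match describes letters and not binding. Of 9730 members with a RefSeq promoter, 9.86% held TTTGAA, as did 18.4% of the 2-fold lowered and 10.8% of the 2-fold raised members. With the groups set aside removed, the share among lowered members was 15.0%, and over all 27305 RefSeq promoters it was 15.4%. AP-1 letters stood in 7.96% of the 2-fold raised and 6.26% of the 2-fold lowered members, against 4.92% of members and 7.76% of all promoters. Without the groups set aside these shares were 7.28% and 6.66%. TTGCATCA occurred in 1.82% of raised, 0.709% of lowered and 0.483% of all members, which is 13, 6 and 47 promoters. Over all RefSeq promoters the share was 0.923%. Without the groups set aside it was 1.52% of raised members, or 10 promoters, and 0.768% of lowered ones. CCAAT was found in 44.6% of lowered, 38.7% of raised and 37.0% of all members, and the NF-kB letters in 3.21% of raised members, or 1.82% without the groups set aside, against 2.11% of members. The raised and lowered sets were picked from this contrast, and these shares carry no test.

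Cytoskeletal genes were lower on balance. In the actin and focal adhesion list 14 rose, 39 fell and 12 were not called of 65 members (median -0.33). RND1 passed the filter only through the BCT-100 libraries and MYH10 only through the PBS libraries. The remaining 63 gave 13 rises and 38 falls (median -0.33). MYLK, myosin light chain kinase, stood at 6881, 6909 and 7123 in the PBS libraries and 2071, 1943 and 1986 in the BCT-100 libraries and fell by 1.8 (SE 0.035), and DIAPH3, a formin, fell by 1.6. The rises included FLNC, the filamin of muscle, at 25660.3, 26199 and 25013 in the PBS libraries and 65407, 72014 and 69202 in the BCT-100 libraries. That was a rise of 1.43 (SE 0.31), and RND3, a small GTPase that opposes contractility, rose by 1.61, from 7730.2 ± 111 to 23691 ± 931. Tubulin and microtubule genes gave 8 rises and 22 falls in 37 (median -0.28). STMN1, which destabilises microtubules, stood at 5807, 5919 and 6056 in the PBS libraries and 1442, 1365 and 1286 in the BCT-100 libraries. It fell by 2.12 (SE 0.040), and TUBB3, the neuronal beta tubulin, fell by 1.6. MAP2, MAP1B and TUBE1, the epsilon tubulin of centrioles, rose by 1.5, 0.57 and 1.97.

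Genes of the nuclear envelope and of chromosomal high-mobility-group proteins fell in 28 and rose in 8 of 43 members (median -0.34), and no rise reached 2-fold. LMNB1, lamin B1, stood at 1246, 1263 and 1173 in the PBS libraries and 225, 267 and 229 in the BCT-100 libraries, a change of -2.35 (SE 0.081). TMPO, a lamin-binding protein, fell by 1.37. SYNE1, a giant envelope spectrin, and the nucleoporin NUP58 rose by 0.97 and 0.66.

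Beyond mitosis, genes of the G1 phase and of DNA repair fell more often than they rose. The E2F factors E2F8 and E2F2 had changes of -2.48 and -1.85, whereas E2F5 and cyclin D2 (CCND2) rose by 1.32 and 2.09, CCND2 from 88.9 ± 7.67 to 380.5 ± 16.4. The list of G1 cyclins, CDKs, their inhibitors, E2F and RB had 12 rises and 17 falls in 35 (median -0.094). Homologous recombination and Fanconi genes fell in 29 of 48 and rose in 6 (median -0.37), with 11 falls and no rise of 2-fold or more. RAD54L, a motor of strand exchange, stood at 568, 601 and 604 in the PBS libraries and 187, 159.6 and 142 in the BCT-100 libraries and fell by 1.86. EME1, a nuclease subunit, fell by 1.59, while XRCC3 and the helicase BLM rose by 0.86 and 0.64. Mismatch, excision and end-joining genes gave 20 falls and 10 rises in 41 (median -0.13). POLQ, the polymerase of microhomology-mediated joining, and the glycosylase NEIL3 had changes of -1.62 and -1.55, and the mismatch repair genes PMS1 and PMS2 rose by 0.80 and 0.94.

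Chromatin regulators split into 21 rises and 28 falls among 64 (median 0.069). KDM3A, a demethylase of histone H3 lysine 9 that hypoxia induces, stood at 1414, 1459 and 1522 in the PBS libraries and 5626, 5446 and 5477 in the BCT-100 libraries and rose by 1.91 (SE 0.044). SUV39H1, a methyltransferase of the same residue, and the deacetylase HDAC5 had changes of -1.41 and -1.2.

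RNA processing genes moved little. Splicing factors rose in 23 and fell in 27 of 65 (median -0.037), and only 1 member, SNRPA1 of the U2 particle, passed 2-fold, with a change of -2.01. HNRNPA1 fell by 0.98, while HNRNPU and PRPF3 rose by 0.77 and 0.94. Of the decay list 23 rose, 16 fell and 9 were not called in 48 (median 0.093). EXOSC6, an exosome subunit, was the 1 decay gene to pass 2-fold, at 597, 579 and 671 in the PBS libraries and 3216, 3042 and 3383 in the BCT-100 libraries, a rise of 2.38 (SE 0.058). UPF3B of nonsense-mediated decay rose by 0.84, and LSM3 and LSM5 had changes of -0.70 and -0.64.

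Translation factors had 25 rises and 21 falls in 52 (median 0.060). EEF1A2, the elongation factor of neurons and muscle, rose by 1.98, and EIF6, which keeps ribosomal subunits apart, by 0.92. EEF2K, the kinase that halts elongation, fell by 1.1, and EIF2B5, a subunit of the exchange factor for eIF2, fell by 0.82. Proteasome genes gave 16 rises and 24 falls in 48 (median -0.086). NFE2L1, the transcription factor that restores proteasome genes, stood at 9000.4, 8892 and 8834 in the PBS libraries and 34104, 34288 and 34289 in the BCT-100 libraries and rose by 1.94 (SE 0.028). PSME2, an activator subunit induced by interferon, rose by 1.76, while PSMD3 and PSMB1 had changes of -1.33 and -0.70.

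Nuclear genes of mitochondria were lower on balance. Of 37 genes of the TCA cycle and pyruvate dehydrogenase 8 rose, 23 fell and 6 were not called (median -0.25). IDH1, the cytosolic isocitrate dehydrogenase, stood at 3727, 3745 and 3761 in the PBS libraries and 17631, 17851 and 17427 in the BCT-100 libraries. It rose by 2.24 (SE 0.034). IDH2, its mitochondrial counterpart, stood at 643, 681 and 598 in the PBS libraries and 129, 124 and 119.6 in the BCT-100 libraries and fell by 2.36 (SE 0.086), so the pair moved in opposite directions. PC, pyruvate carboxylase, fell by 1.77, and PDK1, which inhibits pyruvate dehydrogenase, rose by 1.33. Mitochondrial ribosomal proteins fell in 35 and rose in 19 of 77 (median -0.091), with MRPL38 and MRPL37 at -1.44 and -1.04 and MRPS16 and MRPS21 at 0.72 and 0.61. Of the mitochondrial carriers 8 rose, 20 fell and 12 were not called in 40 (median -0.21). SLC25A18 passed the filter only through the PBS libraries, and without it 8 rose and 19 fell of 39 (median -0.21). SLC25A10, the dicarboxylate carrier, fell by 2.24, and SLC25A37, which brings iron into mitochondria, rose by 1.07. SLC25A29, a carrier of basic amino acids including arginine, rose by 0.69, from 286 ± 12 to 461 ± 29.2.

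Nucleotide metabolism was balanced, with 15 rises and 17 falls in 41 (median 0.0071, a sign that some settings turned). UPP1, uridine phosphorylase, stood at 582, 603 and 579 in the PBS libraries and 2585, 2781 and 2451 in the BCT-100 libraries and rose by 2.14 (SE 0.046). GART of purine synthesis rose by 0.84, while CTPS2 of CTP synthesis and PRPS1, which makes phosphoribosyl pyrophosphate, had changes of -1.3 and -1.08. Sugar, lactate and nucleoside transporters rose in 14 and fell in 5 of 30 (median 0.40). SLC2A12 passed the filter only through the PBS libraries, and without it 14 rose and 4 fell of 29 (median 0.56). SLC2A1, the glucose transporter GLUT1, rose by 1.63, from 823 ± 33.6 to 2539 ± 30.1, and SLC29A4, a monoamine and nucleoside transporter, by 3.25. The vitamin transporter SLC5A6 fell by 0.82.

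Metal-handling genes other than ferritin also moved. The zinc exporter SLC30A1 and the zinc and iron importer SLC39A14 rose by 1.1 and 1.18, SLC39A14 from 6594 ± 195 to 14935 ± 439.5. MT1G and MT1H, metallothioneins that bind zinc, rose by 2.72 and 3.32, MT1X rose by 0.26, and MT2A was not called at -0.0075. The metallothioneins are near-identical copies, so counts of a single gene are uncertain. The zinc importer SLC39A10 and SLC30A4, which moves zinc into vesicles, had changes of -1.71 and -1.65. The list gave 12 rises and 9 falls in 25 (median 0.16, a sign that a filter at 50 turned). MT1H passed the filter only through the BCT-100 libraries and so had to differ. Without it the list gave 11 rises and 9 falls in 24 (median 0.074).

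Lipid storage and oxidation genes rose in 18 and fell in 8 of 32 (median 0.21). APOE passed the filter only through the BCT-100 libraries and FABP4 only through the PBS libraries. The remaining 30 gave 17 rises and 7 falls (median 0.21). The apolipoproteins L APOL1 and APOL6 rose by 2.23 and 1.87, and ABCA1, which exports cholesterol, by 1.09, from 6563 ± 202 to 14005 ± 144. PNPLA3, a lipid droplet hydrolase, fell by 1.46, and ACADS of beta oxidation fell by 0.99. Sphingolipid and phospholipid enzymes gave 14 rises and 17 falls in 46 (median -0.077). SPTLC3, a subunit of the first enzyme of sphingolipid synthesis, stood at 2231, 2348 and 2382 in the PBS libraries and 473, 521 and 467 in the BCT-100 libraries and fell by 2.25 (SE 0.22). SMPD1, acid sphingomyelinase, fell by 1.8. PLD1, a phospholipase, and SGPL1, which breaks down sphingosine phosphate, rose by 1.52 and 1.09.

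Glycosyltransferases changed strongly in single members. ST8SIA5, a sialyltransferase of gangliosides, stood at 1682, 1645 and 1719.6 in the PBS libraries and 258, 306 and 235 in the BCT-100 libraries. It fell by 2.66 (SE 0.18), and GALNT6, which starts O-linked chains, fell by 1.69. FUT1, a fucosyltransferase of the H blood group antigen, rose by 4.51, from 6.47 ± 4.11 to 147 ± 3.36, and ST3GAL1 rose by 1.48. Of 40 members 12 rose, 19 fell and 9 were not called (median -0.35). Vesicle transport through the Golgi had 23 rises and 28 falls in 65 (median -0.052). KDELR3, a receptor that returns proteins to the endoplasmic reticulum, and TMED10, a cargo receptor, had changes of -1.45 and -0.99, and SEC63 of protein import and ARFGAP3 rose by 0.91 and 0.76.

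Cytokines and receptors outside the group set aside were raised on balance. Of 36 members 19 rose, 7 fell and 10 were not called, with 11 rises of 2-fold or more (median 0.32). IL1RL1, IL18R1, IL24 and EBI3 passed the filter only through the BCT-100 libraries, so these 4 had to differ. Of the other 32, 15 rose, 7 fell and 10 were not called (median 0.12). CSF2, the granulocyte-macrophage colony-stimulating factor, stood at 8.8, 13.6 and 11.7 in the PBS libraries and 757, 803 and 828 in the BCT-100 libraries. The groups did not overlap, a rise of 6.03 (SE 0.30, limma adjusted p = 4.01e-13). IL1RL1, the receptor of IL33, had 3 reads in all with PBS and 320 with BCT-100, a ratio of 103 with a 95% counting interval of 35.0 to 504. CSF1R and IL17RC, receptors of CSF1 and IL17, had changes of -1.52 and -1.37. In the IL6 family and STAT list 15 rose, 7 fell and 9 were not called of 31 (median 0.17). LIF, leukemia inhibitory factor, stood at 2726, 3181 and 2471 in the PBS libraries and 10910.1, 10550.0 and 10657 in the BCT-100 libraries and rose by 1.95 (SE 0.12), and the feedback inhibitor SOCS1 rose by 1.48. IL11RA and CNTF had changes of -1.87 and -1.41.

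TNF superfamily genes rose in 10 and fell in 6 of 23 (median 0.40). TNFSF8 passed the filter only through the BCT-100 libraries and so had to differ. Without it 9 rose and 6 fell of 22 (median 0.31). TNFSF8, the ligand of CD30, was at 0 in all PBS libraries and at least 126-fold higher with BCT-100. The TNF receptor family genes TNFRSF21 and TNFRSF19 had changes of -1.16 and -0.98. Cell death genes gave 13 rises and 10 falls in 32 (median 0.11). DFNA5, the gasdermin E gene, and GSDMB rose by 1.22 and 1.28, while MLKL, which executes necroptosis, fell by 1.19 and the sensor TLR6 fell by 1.15. CASP5, an inflammatory caspase, rose by 5.63, at 2.93, 0 and 1.06 with PBS and 103, 107 and 87 with BCT-100. It passed the filter only through the BCT-100 libraries and so had to differ. Without it the cell death genes gave 12 rises and 10 falls in 31 (median 0.046).

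Complement genes rose in 12 and fell in 5 of 21 (median 0.45). PTX3, a pattern recognition protein that binds complement, stood at 974, 1038 and 890.1 in the PBS libraries and 16241, 15146 and 15656 in the BCT-100 libraries. It rose by 4.02 (SE 0.074), and the receptor C5AR1 rose by 2.85. CFI, a protease that restrains complement, fell by 1.3. In the prostaglandin list 12 rose, 7 fell and 3 were not called of 22 (median 0.22). ALOX5AP passed the filter only through the BCT-100 libraries, and without it 11 rose and 7 fell of 21 (median 0.21). PTGS2, cyclooxygenase 2, stood at 380.4, 390.2 and 423 in the PBS libraries and 3667, 3062 and 3709 in the BCT-100 libraries and rose by 3.12 (SE 0.23). PTGR2, which inactivates prostaglandins, rose by 1.54, and the phospholipase PLA2G4A and the thromboxane receptor TBXA2R had changes of -1.23 and -1.56. Of the AHR, kynurenine and retinoid genes 10 rose and 8 fell in 26 (median 0.12). ALDH1A1 passed the filter only through the PBS libraries, and without it 10 rose and 7 fell of 25 (median 0.13). AHR, the aryl hydrocarbon receptor, rose by 0.95 and DHRS3, a retinal reductase, by 1.22, while RARB and QPRT had changes of -1.75 and -1.32. The call of AHR was lost with a pseudocount of 0.5.

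Clock genes had the highest share of rises among the 54 lists, 14 of 19, with 3 falls (median 0.40). NFIL3, a repressor of clock output, stood at 369.7, 415 and 424 in the PBS libraries and 1414, 1367 and 1287 in the BCT-100 libraries and rose by 1.75. The period gene PER2 rose by 1.12, while ARNTL2 fell by 1.03 and the kinase CSNK1D fell by 0.20. NR1D1, the heme receptor REV-ERB alpha, stood at 769.7, 826 and 849 in the PBS libraries and 3194, 3304 and 3191 in the BCT-100 libraries and rose by 1.99 (SE 0.046). Of all 32 nuclear receptor and co-regulator genes 12 rose, 10 fell and 10 were not called (median 0.098). VDR, the vitamin D receptor, rose by 1.12. NR2F1, an orphan receptor of neural development, fell by 2.42 (SE 0.051), from 1695 ± 34 to 315 ± 16.5, and the co-activator PPARGC1B fell by 1.39.

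Zinc finger genes named ZNF were the largest family described. Of 365 members 144 rose, 75 fell and 146 were not called (median 0.16), and 12 rose and 13 fell by 2-fold or more. ZNF474 passed the filter only through the BCT-100 libraries, and without it 143 rose and 75 fell of 364 (median 0.16). ZNF460 and ZNF419 rose by 1.54 and 1.31, and ZNF385D and ZNF792 had changes of -1.86 and -1.49. HOX genes mostly went without a call, with 4 rises and 5 falls in 24 (median -0.23). HOXB9 passed the filter only through the BCT-100 libraries and HOXC10 only through the PBS libraries, so both had to differ. The other 22 gave 3 rises and 4 falls (median -0.23). HOXB9 rose by 3.39 at a low level, from 5.9 ± 0.462 to 72.1 ± 12.1, and HOXD13 and HOXC6 had changes of -0.69 and -0.36, calls that were lost when single libraries were left out.

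Clustered protocadherins, adhesion proteins of neuronal identity, were lower, with 14 falls and 2 rises in 35 (median -0.61). PCDHGA11 passed the filter only through the PBS libraries, and without it 13 fell and 2 rose of 34 (median -0.58). PCDHGC5 stood at 488, 548 and 524 in the PBS libraries and 35.2, 37.6 and 14.1 in the BCT-100 libraries, a change of -4.23 (SE 0.44), and PCDHB7 fell by 2.02. PCDHGB2 rose by 0.59. Genes of the gamma cluster share their last exons, so reads there cannot be given to a single member with certainty. Neuronal markers went both ways. GAP43 and SNAP25, proteins of growing axons and of synaptic vesicle fusion, had changes of -2.88 and -2.41. MAP2 rose by 1.5, and SYT1 stood at a mean of 448 with PBS and 568 with BCT-100. Of the 9 neuronal markers that were members 2 rose, 4 fell and 3 were not called. Without NEFM, which passed the filter only through the PBS libraries, 2 rose, 3 fell and 3 were not called of 8 (median -0.13).

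Channels, transporters and trafficking families ended the lists. Potassium channel genes were mostly not called, with 7 rises and 4 falls in 28 (median 0.23). KCNN3 and KCNJ3 passed the filter only through the BCT-100 libraries and so had to differ. The other 26 gave 5 rises and 4 falls (median 0.16). KCNN3, a calcium-activated channel, stood at 2.93, 2.73 and 2.13 with PBS and 137, 129 and 128 with BCT-100 and rose by 5.21, KCNG1 rose by 1.51, and KCNS3 fell by 0.47. ABC transporters gave 8 rises and 13 falls in 27 (median -0.31). ABCA12 passed the filter only through the BCT-100 libraries and ABCD2 only through the PBS libraries. The remaining 25 gave 7 rises and 12 falls (median -0.31). ABCC9, a regulatory subunit of ATP-sensitive potassium channels, rose by 1.41, and ABCB9 and ABCA7 had changes of -1.09 and -0.82. Among S100 proteins, annexins and galectins 7 rose, 11 fell and 4 were not called of 22 (median -0.028, a sign that a filter at 50 turned). ANXA9 passed the filter only through the PBS libraries and so had to differ. Without it 7 rose and 10 fell of 21, and the median had the other sign (0.055). LGALS3, galectin 3, rose by 1.37, from 1849.6 ± 66.9 to 4780.4 ± 109, and S100A11 by 0.91, while ANXA6, a membrane-binding annexin, fell by 1.67 and S100A3 fell by 1.08. RAB GTPases rose in 18 and fell in 23 of 60 (median -0.034). RAB7B, of late endosomes, stood at 261, 313 and 282 in the PBS libraries and 19.7, 26.2 and 13 in the BCT-100 libraries, a change of -3.84 (SE 0.28). RAB43 rose by 3.0, from 167 ± 52.6 to 1301 ± 104, and RAB39B by 2.05.

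A few genes were detected in a single treatment group. In all, 9 genes were below 1 in every PBS library and at 10 or more in every BCT-100 library, and 1 showed the reverse. Besides RGS16, TNFSF8 and SPRR2F, TMEM265 was at 0 with PBS and at least 14.6-fold higher. ELF3, an epithelial ETS factor, had 1 read with PBS and 186 with BCT-100, a ratio of 193 with a 95% counting interval of 34.1 to 7647. HSD17B3 had 1 and 98 reads (ratio 99.5, interval 17.4 to 3971), and CNTN4, a contactin, 1 and 92 (ratio 101, interval 17.7 to 4038). HNF4A, a nuclear receptor of liver and gut, had 1 and 62 reads (ratio 68.6, interval 11.9 to 2751), and ISLR2 1 and 45 (ratio 45.8, interval 7.81 to 1848). RNASE1, a secreted ribonuclease of vessels, had 63 reads with PBS and 0 with BCT-100, at least 20.1-fold lower. These genes had to differ to be listed, and intervals and floors cover counting error only.

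Gene structure went with small shifts of the median. The 12149 protein-coding members were split into 5 equal classes by rank. The class with the fewest exons, 1 to 5, had a median change of 0.051, and that with the most, from 17, of -0.079. Ties were split, so some genes with 5 or 17 exons lie in the neighbouring classes. By GC content of the transcript in the protein-coding members the medians ran from 0.028 in the lowest class, up to 41.4%, to -0.096 in the highest, from 58.4%. All members were also split by mean value. In the class with the lowest mean values, up to 145.6, 15.6% of members rose and 15.7% fell by 2-fold or more, and in the highest class, from 2088, 7.73% and 3.87%. The lowest class includes members that passed the filter through 1 group only, which had to differ, and their part in these shares was not tested. On the X chromosome 28.8% of 427 members rose and 42.4% fell, and on chromosome 20 42.3% of 310 rose and 33.9% fell. The part of GC content and exon number in the results above was not tested.

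The response was compared with that of U373 through the difference of the 2 changes, tested for every gene in the same fit. It was called for 7452 members (58.8%), so a difference between the lines is common. Over all genes in the fit it was called for 56.8%. A response called in opposite directions, with a called difference of 1 or more, was seen in 448 members (3.54%) and in 3.49% of the genes in the fit. Of the 1002 members 2-fold higher in U87, 629 (62.8%) also rose in U373, 87 (8.68%) fell there, and 586 (58.5%) had a change called larger in U87. Of these 1002, 138 (13.8%) were below 10 in all U373 libraries and could show little change there. Of the 1123 members 2-fold lower, 810 (72.1%) also fell, 51 (4.54%) rose, and 625 (55.7%) had a change called larger in size in U87. Of these 1123, 156 (13.9%) were below 10 in all U373 libraries. Both sets were picked for a large change in U87, which by itself favours a larger change there, and no set picked in U373 was compared. The shares of all members that rose or fell in U373 are not given here, so the overlaps cannot be read against them. PTGS2, which rose in U87, was listed at 0 in all U373 libraries, and SPRR2D stood at 0 ± 0 to 0.62 ± 1.07 there, so neither gives a U373 change to compare. IDH1 changed by 2.24 and 0.30, a difference of 1.93, and TNFRSF9 by 3.18 and 0.36, a difference of 2.82. CCND2 and INHBE, which rose in U87 by 2.09 and 3.2, also rose in U373, CCND2 from 0 ± 0 to 259.8 ± 23.7 and INHBE from 0.307 ± 0.532 to 92.7 ± 8.65. With PBS levels at or near 0 there, the size of their U373 fold depends on the pseudocount and is not given. FTH1, LMNB1, STMN1 and SPARC moved alike in direction, by 1.34, -1.87, -1.68 and -1.83 in U373.

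**Figure D4:**
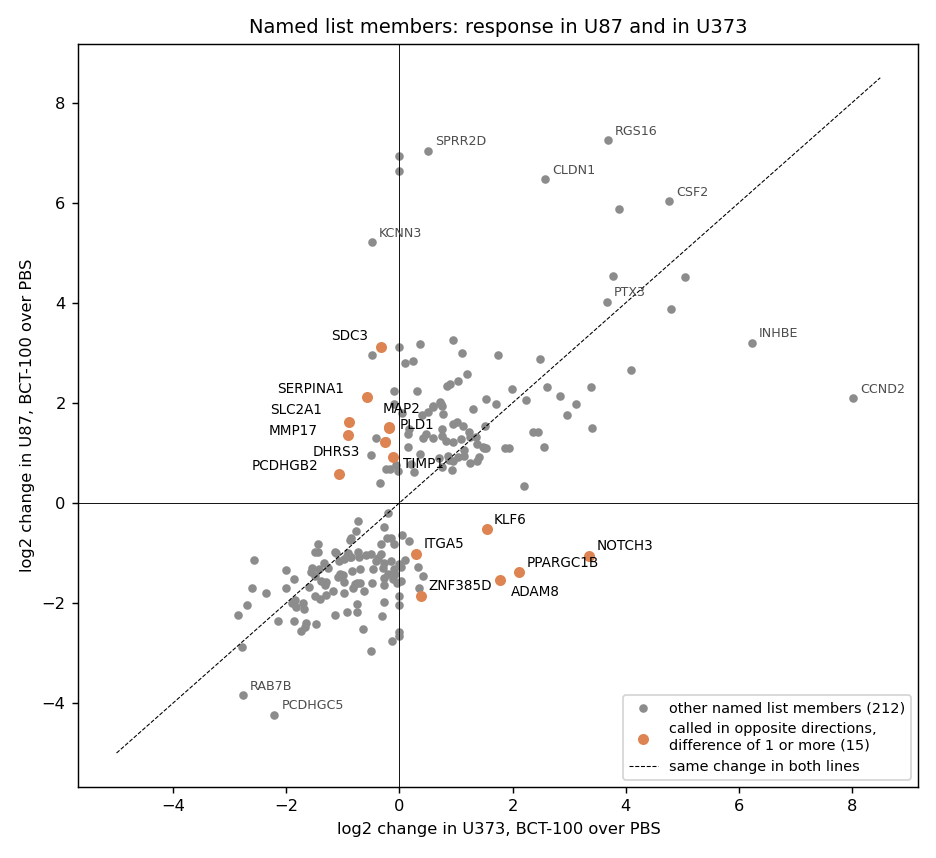
Log2 change in U373 on the x axis against that in U87 on the y axis for the 227 genes named from the lists, with the dashed line at equal change. Orange points are the 15 genes called in opposite directions in the lines with a called difference of 1 or more, such as NOTCH3 at -1.06 in U87 and 3.36 in U373.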

How the data were processed

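RNA of 12 libraries was sequenced, and the 6 of U87 are described here. The authors deposited 1 table of signal values per gene and library. Per the submitters' processing notes, STAR and RSEM were used with hg38, and versions are not given in the sources used here. The values are expected counts divided by 1 factor per library, as between 85.3% and 86.9% of those in the U87 libraries became whole within 0.001 once that division was undone. The strand setting of the counting is not given in the sources used here, so a gene and an overlapping or antisense neighbour may share reads. Of 19844 entries, 20 repeats were dropped. As deposited, 28 symbols had been turned into dates. Groups follow the treatment label, because the protocol label names PBS for every sample.

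From these values log2(value + 1) was fitted with limma 3.58.1 in R 4.3.3 (lmFit, eBayes with trend and robust), with 4 group means over all 12 libraries and 8 residual degrees of freedom. The fit held the 13628 genes at 10 or more in at least 3 libraries, of which 9450 (69.3%) were called in U87, adjusted by Benjamini and Hochberg. A gene near 0 in a line takes part of its spread from the other line. The chi-square of the reads of replicate U87 libraries was 2.30 to 3.40 per gene, above sampling noise. Alternatives were TMM factors computed from the values, median-of-ratios scaling, pseudocounts of 0.5 and 5, no filter, a filter at 50, the 6 U87 libraries alone, no trend, a replicate block and leaving out each U87 library. The test was tested on simulated data. Positions and transcript features come from GENCODE v29 (GRCh38), where 12169 members matched.

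The members and lists were chosen with earlier results of these data known. Named genes are, per list, the called members at a mean of 100 or more with the 2 largest rises and falls, the 12 largest gains and losses in value outside the groups set aside (178 genes), genes detected in a single group, and runs of 4 or more neighbours all changed 2-fold in 1 direction. Genes named outside this rule were chosen after their values were seen: CASP5, EGF, EGFR, EPCAM, ERBB2, EREG, ESRP1, FOS, HBEGF, HOXB9, IL20RB, JUNB, KLF10, KRT80, MT1G, MT1H, MT1X, MT2A, NRP2, PDGFRA, PDGFRB, TGFA, UBE2T and VCAN. Other marker genes, also with values known, and list members that passed the filter through a single group are named besides. The list of small nucleolar RNA host genes had no entry in the table used here. Some genes that the rule names are not reported here.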

Additional observations from a re-analysis of the deposited data

Results flagged for a closer look

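Among the 227 genes named from the lists, 15 were called in opposite directions in U87 and U373, with a called difference of at least 1 on the log2 scale (limma, Benjamini-Hochberg). Over all members 448 (3.54%) did so. The differences below are the U87 change minus the U373 change. NOTCH3, a NOTCH receptor, fell in U87, from 1028 ± 98 to 495 ± 63.9, and rose in U373, from 30.8 ± 10.9 to 311 ± 29.8 (SD, n = 3 in each group), a difference of -4.41 (SE 0.33, adjusted p = 4.97e-07). PPARGC1B, a co-activator of mitochondrial genes, had a difference of -3.51, ADAM8 of -3.31, ZNF385D of -2.25, KLF6 of -2.08 and ITGA5 of -1.32, and each of these fell in U87 and rose in U373. The U373 values of ADAM8 were low, 3.01 ± 2.8 to 10.4 ± 5.64, and its call in U87 was lost under several settings.

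The other 9 rose in U87 and fell in U373. SDC3, a proteoglycan, moved from 33.9 ± 6.79 to 297 ± 29.5 in U87 and from 3063 ± 48.1 to 2456 ± 113 in U373, a difference of 3.43 (SE 0.14, adjusted p = 7.84e-13). SERPINA1 had a difference of 2.69 and SLC2A1, the glucose transporter GLUT1, of 2.51, the latter with U373 values going from 5504 ± 124 to 2983 ± 248. MMP17 differed by 2.27, PLD1 by 1.71, MAP2 by 1.68, PCDHGB2 by 1.66, DHRS3 by 1.48 and TIMP1 by 1.03. What sets the lines apart in these genes was not tested.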

How the results depend on the processing

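Every count kept its size within 1.5 times under the 15 alternatives run. Rises ran from 4223 with a filter at 50 to 4751 with no filter, and falls from 4498 with a library left out to 4966 with no filter. Rises of 2-fold or more ran from 798 with a filter at 50 to 1366 with no filter, and falls from 939 to 1404. Genes above 1.5-fold by treat numbered 2470 to 2878, and differences from U373 7112 to 7794. With each U87 library left out in turn, rises were 4239 to 4292, falls 4498 to 4554, 2-fold rises 987 to 993, 2-fold falls 1088 to 1125, treat calls 2470 to 2508 and differences 7112 to 7195. Scaling by TMM moved the median of all members by 0.017 and gave 4614 rises and 4589 falls. The fit of the 6 U87 libraries alone gives no difference from U373. Of 308 genes recomputed, 6 lost their call in some setting. AHR (adjusted p = 0.0745) and F2RL1 (0.0565) did so with a pseudocount of 0.5 by limma, HOXC6 under both scalings, no filter and 4 omissions, HOXD13 under 2 omissions, GNB3 under 3, and ADAM8 with a pseudocount of 0.5 and under all 6. EREG was called with a pseudocount of 5 and with the U87 libraries alone. MT2A, not called in any setting, stood at -0.0075 and moved to 0.0099 under TMM and 0.0077 under median-of-ratios scaling, and between -0.030 and 0.016 when a library was left out. The cause was not tested. The list medians moved by at most 0.21, and 4 lists changed sign, each with a median within 0.16 of 0.

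The replicate numbers did not pair the U87 libraries, since deviations of same-numbered libraries correlated at -0.0054, 0.038 and 0.024. With the replicate block, rises were 4449, falls 4706, 2-fold rises 999, 2-fold falls 1121, treat calls 2635 and differences 7363, and the call of ADAM8 was lost. In simulated U87 data few of the 13513 genes were changed, 67 at 1.5-fold, 67 at 2-fold and 66 at 4-fold. There 29 of 13313 unchanged genes were called, 14.4% of the simulated calls, and 80.6% of 1.5-fold changes were recovered. In the real contrast 72.7% of members were called, so these rates do not carry over to it. Values near 10 rest on few reads.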
